A study of Mus musculus with 2 samples.

Results

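Proliferating tanycytes were the cells that the authors' deposited annotation names as such, and they made up 1096 of the 22285 annotated cells. Of these, 63 were among the 8948 cells of the control library, and all others were among the 13337 cells of the Nfia/b/x-deficient library. Both libraries were single-cell ATAC-seq, which records where the Tn5 transposase can reach the DNA in a single nucleus, of GFP-positive cells sorted from the mediobasal hypothalamus of mice at P8 (postnatal day 8). Control mice were Rax-CreER;CAG-lsl-Sun1-GFP. Deficient mice carried in addition floxed alleles of Nfia, Nfib and Nfix (Nfialox/lox;Nfiblox/lox;Nfixlox/lox). Rax-CreER and the Cre-dependent nuclear tag Sun1-GFP were therefore common to both groups, Rax being a tanycyte gene, and descendants of a tagged cell keep the tag. There was 1 library per genotype, how many mice were pooled in it was not stated, and in single cells the deletion of the 3 genes was not measured here. No difference below was tested; all intervals are 95% and cover counting error only.

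Tanycytes resemble radial glia. Their cell bodies sit at the floor and walls of the third ventricle of the hypothalamus, and they keep some capacity to divide and to form neurons and glia in young animals. Alpha tanycytes sit in the ventricular wall and beta tanycytes in its floor, next to the arcuate nucleus and the median eminence. NFIA, NFIB and NFIX are transcription factors that bind the same DNA motif, promote the formation of glia and, in other radial glia, are part of the move from division to a glial state. The comparison addresses what their loss does to the division and neurogenic capacity of tanycytes.

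The measurement behind every value is a detection, which is 1 of 107377 accessible regions found at least once in 1 cell. The regions are numbered, and the files used here do not pair the numbers with positions or genes. The label could therefore not be checked against its markers, Rax for tanycytes and Hmgb2 for dividing cells, and accessibility at Nfia, Nfib and Nfix, sequence motifs and pathways were not analysed. The cells are described below through sets of regions that mark the other 8 annotated types or that differ between the libraries in the other tanycytes. Proliferating cells took no part in the choice of these sets.

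The 63 control cells had a median of 5010 detections (quartiles 2415 and 6938, range 1043 to 13431) and 320785 detections in all. The deficient cells had a median of 4503 (quartiles 3225 and 6265, range 993 to 12909) and 5063545 in all. All cells of the control library had a median of 4549.5 and those of the deficient one 4042, below the medians of proliferating tanycytes, but both quartiles of the 63 control cells were below the 2973.75 and 7217.25 of their library. The deepest 5% of a library held none of the control proliferating cells and 3.29% of the deficient ones. The libraries shared 204 cell barcodes. Of the cells with these barcodes, 2 control and 15 deficient ones were proliferating, and no barcode was proliferating in both libraries.

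Proliferating tanycytes took 0.704% of the control cells (exact Clopper-Pearson interval 0.541 to 0.900) and 7.75% of the deficient cells (7.30 to 8.21), 11.0 times as large a share (8.53 to 14.4). Among tanycytes alone the shares were 0.863% of 7304 and 10.3% of 10055, with a ratio of 11.9. Each of the other 8 types differed less between the libraries, from 0.460 times for astrocytes to 1.92 times for neurons. The sources used here do not say how the types were named, so this share describes their labels.

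The larger share of the label was present at every depth. When all cells were split into 4 equal bins by detections per cell, the control library had 19, 8, 16 and 20 proliferating cells from the shallowest to the deepest bin, or 0.934%, 0.399%, 0.736% and 0.731% of its cells. The deficient library had 192, 267, 322 and 252, or 5.43%, 7.49%, 9.47% and 8.88%. The intervals of the libraries did not overlap in any bin, and the ratio ran from 5.82 in the shallowest to 18.8 in the second, the latter resting on 8 control cells.

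**Figure D1:**
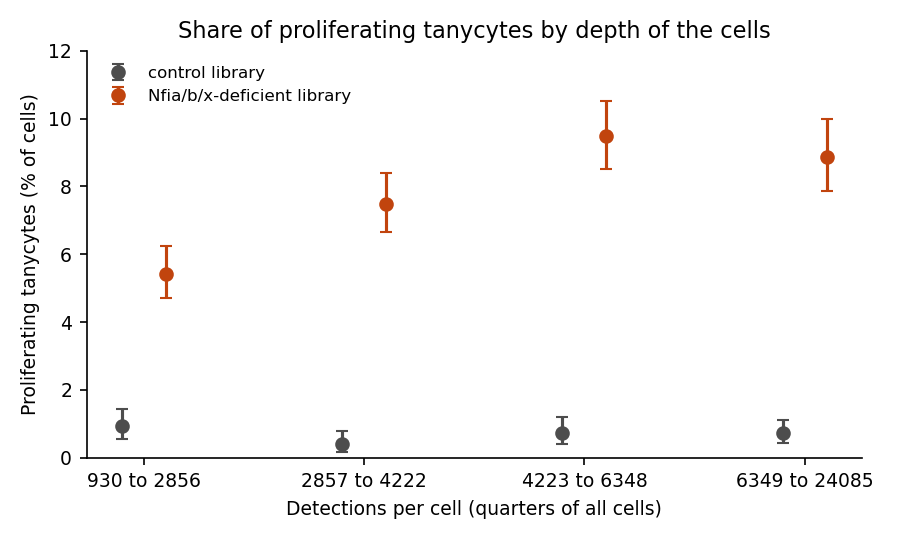
Share of cells named proliferating tanycytes (y axis, percent of the cells of a library) in 4 equal bins of all cells by detections per cell (x axis). Points are shares and bars exact 95% intervals; the deficient library lies between 5.43% and 9.47% and the control library between 0.399% and 0.934%.

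How firmly single cells carry the name was checked in both libraries. Each type of a library was split at random into 2 equal parts, each part was thinned to a profile of 151124 detections, and each cell was given the type whose profile, from the part without that cell, gave it the highest likelihood. Of the deficient proliferating cells, 832 (80.5%) went back to their own type, and 32.0% of the 4902 alpha2 tanycytes of that library also went there. Of the control proliferating cells, 45 of 63 (71.4%, 58.7 to 82.1) went back, but so did 58.2% of the 4306 control alpha2 tanycytes. Proliferating and alpha2 cells were thus set apart by 48.6 percentage points in the deficient and by 13.2 in the control library. Counted by these reassigned names, proliferating tanycytes took 31.8% of all control cells (2848) and 20.2% of all deficient cells (2692), a ratio of 0.634 (0.601 to 0.669), so the direction of the difference in shares turned. Of the 2848 control cells, 2507 were alpha2 tanycytes by label. Only 8.13% of control and 23.9% of deficient alpha2 tanycytes went back to their own type. The ratio of 11.0 thus holds for the authors' labels and was not recovered from profiles made at the depth of the 63 control cells. These profiles did not recover most alpha2 tanycytes either, so the turned ratio cannot decide whether the labelled shares hold. Against full profiles pooled over both libraries, in which the proliferating profile is mostly deficient, 92.8% of the deficient and 0% of the control proliferating cells went back to their own type, and 53 of the 63 control cells went to alpha2. At this depth the label thus separated control cells from alpha2 tanycytes only weakly, and 94.3% of all proliferating cells came from 1 library, so that the type and the library cannot be fully told apart. Values of the 63 control cells are given below beside those of alpha2 tanycytes.

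Alpha2 tanycytes were the nearest type to proliferating tanycytes in both genotypes. With their own profile left out, 55 of the 63 control cells (87.3%) and 916 of the deficient cells (88.7%) were nearest to the alpha2 profile of their library. Of the other control cells, 3 were nearest to beta1, 2 to beta2 tanycytes and 2 to neurons, too few to name a second type. Of the other deficient cells, 97 (9.39%) were nearest to neurons, but only 23 (2.23%) against the profiles of the control library. The correlation across regions gave the same first place, at Pearson r = 0.854 with alpha2 among control cells and 0.837 among deficient cells, all profiles being thinned to 320785 detections. These correlations are descriptions across 107377 regions, which are not independent replicates and share libraries and depth. After alpha2 came beta1 (0.842) and alpha1 (0.833) in the control library, with neurons last at 0.799. In the deficient library alpha1 (0.818) and neurons (0.817) followed, and beta1 came after them at 0.810. Control and deficient proliferating profiles correlated at 0.821, below the 0.834 of control proliferating with deficient alpha2 tanycytes.

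**Figure D2:**
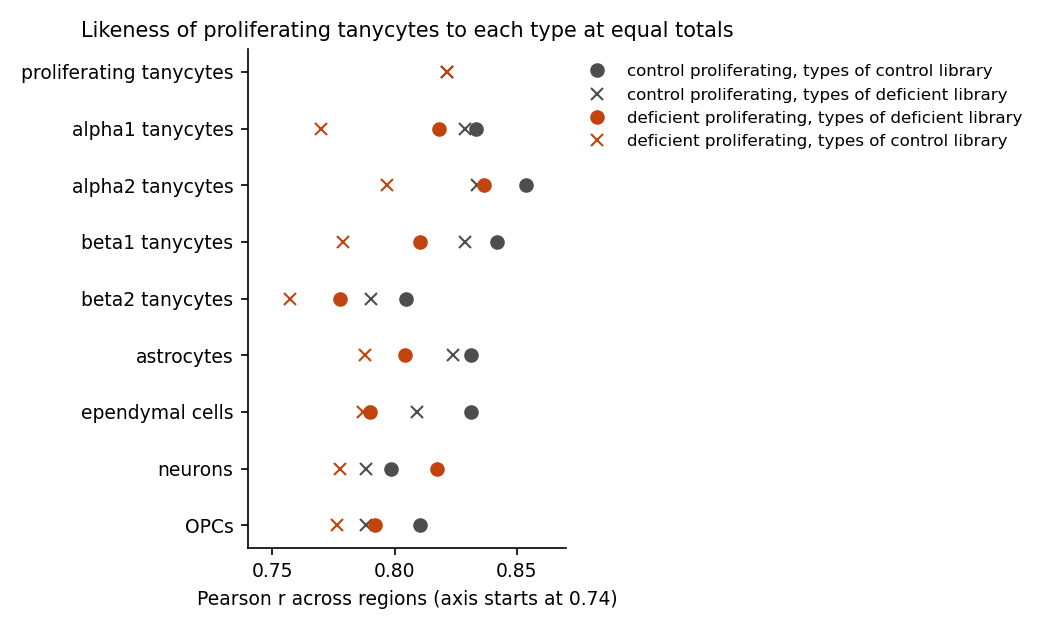
Pearson correlation across regions (x axis, which starts at 0.74) of the proliferating profiles with each type (y axis), all thinned to 320785 detections. Filled points compare within a library and crosses between libraries; alpha2 has the highest filled point of both colours, at 0.854 and 0.837.

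Regions that lose accessibility in deficient tanycytes of the other types were also lower in deficient proliferating tanycytes. This set was chosen for a difference between the same libraries, unlike the sets that mark types. Its difference is therefore not ranked against theirs. The 500 lowest regions were taken by their mean log2 ratio of deficient to control over alpha1, alpha2, beta1 and beta2 tanycytes, among 28718 regions with enough detections. Control proliferating cells had 10.1 of every 1000 detections in this set (9.72 to 10.4) and deficient ones 2.12 (2.08 to 2.16), which is 21.1% of the control level and a log2 ratio of -2.25 (-2.30 to -2.19). Alpha2 tanycytes, which helped to choose the set, went from 10.1 to 3.37, a log2 ratio of -1.59. Neurons, which did not, went from 6.93 to 2.19 (-1.66), and astrocytes only from 8.84 to 6.25 (-0.50). In the control library proliferating tanycytes were the fourth of the 9 types from the top and differed little from alpha2 (log2 ratio -0.01). In the deficient library they were 0.67 below alpha2 on the log2 scale. That value does not use the 63 control cells, but the label may rest on the same regions. Proliferating tanycytes were only 0.047 below neurons (log2 ratio -0.047, -0.080 to -0.013), so both types shared the lowest level.

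Regions that gain accessibility in deficient tanycytes showed the reverse with a smaller gap. The 500 highest regions took 5.40 of every 1000 detections of control proliferating cells (5.15 to 5.66) and 10.4 of deficient ones (10.3 to 10.5), a log2 ratio of 0.94 (0.87 to 1.01). Alpha2 tanycytes went from 5.16 to 9.02 (0.81) and neurons from 5.28 to 9.01 (0.77). Proliferating tanycytes had the highest level of the 9 types in both libraries. In the deficient library alpha1 tanycytes came closest, at 9.55 per 1000. There proliferating tanycytes were 0.12 above alpha1 tanycytes and 0.20 above both alpha2 tanycytes and neurons on the log2 scale. In the control library they were not set apart from neurons (0.033, -0.039 to 0.10) or alpha2 tanycytes (0.066, -0.0031 to 0.13).

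**Figure D3:**
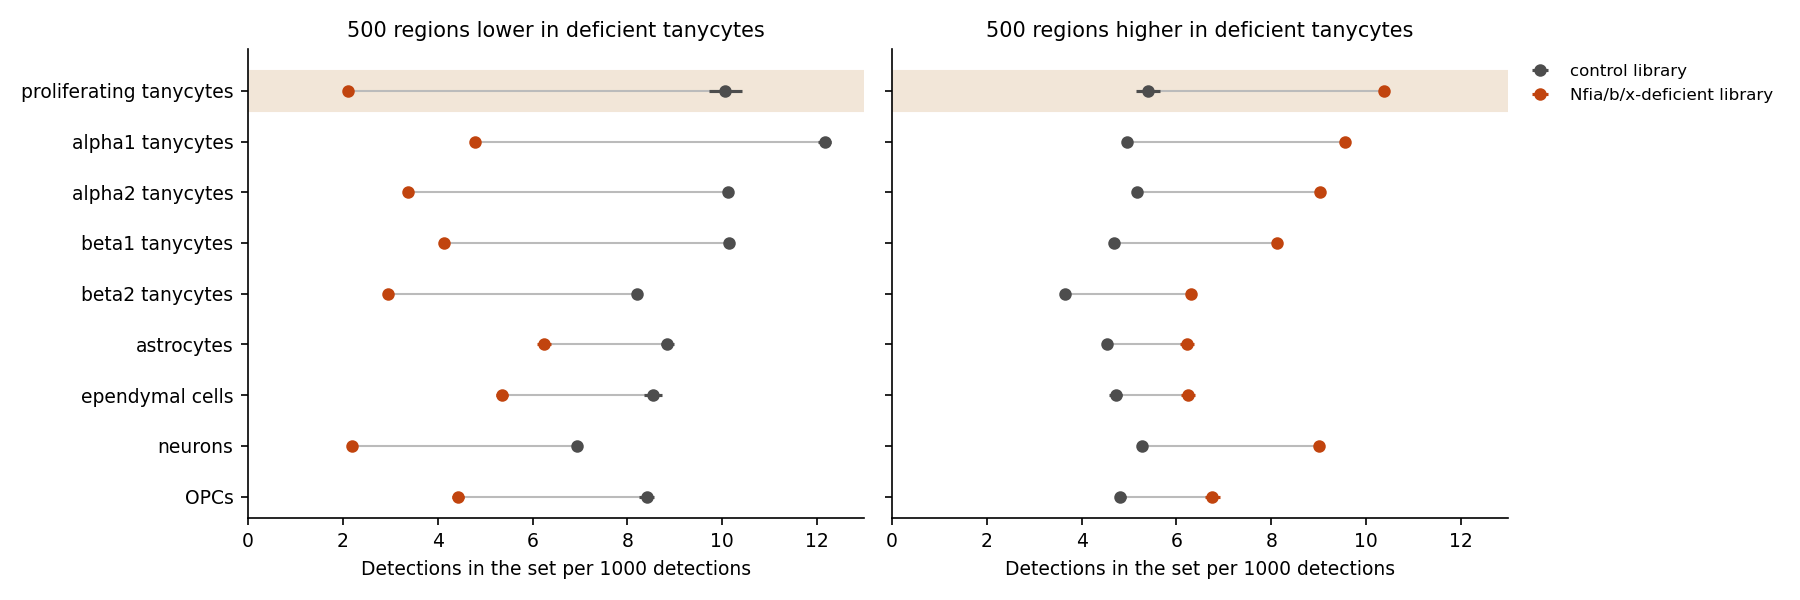
Detections in the 500 regions lower (left) and the 500 regions higher (right) in deficient alpha1, alpha2, beta1 and beta2 tanycytes, per 1000 detections of each type (x axis), with exact 95% intervals that are mostly narrower than the points. In the deficient library proliferating tanycytes (2.12) and neurons (2.19) have close and low levels of the left set, and proliferating tanycytes have the highest of the right set (10.4).

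The difference was graded over regions with smaller changes. Where the mean log2 ratio of the other tanycytes was between -2 and -1.5 (93 regions), proliferating tanycytes went from 2.08 to 0.284 detections per 1000 (-2.87) and alpha2 tanycytes only from 2.04 to 0.512. Between -1 and -0.5 (2090 regions), the log2 ratios were -1.17 in proliferating and -0.83 in alpha2 tanycytes. Between 0.5 and 1 (856 regions) they were 0.75 and 0.65. The change was the larger one in proliferating tanycytes in all 3 bins. Within the deficient library, the log2 ratios of proliferating to alpha2 tanycytes in these bins were -0.85, -0.35 and 0.17.

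Single cells of the deficient library spread over a narrow range in the lower set. Each cell was thinned to 2000 detections, for which 12 control and 65 deficient proliferating cells were too shallow. The 51 remaining control cells had 10 to 32 detections in the lower set (median 21). The 968 deficient cells had 0 to 17 (median 4), so the ranges overlapped between 10 and 17, where 35 deficient and 16 control cells lay. Deficient alpha2 tanycytes had a similar median of 5 but reached 36, and control alpha2 tanycytes had a median of 20. Deficient neurons had the same median of 4 and a mean of 4.07, beside 4.15 in proliferating tanycytes, so the low level was common to both types and their order turned in thinned cells. Medians of the other deficient types were 5 in beta2 and 7 in beta1 tanycytes, 8 in alpha1 tanycytes and OPCs (oligodendrocyte precursor cells), 11 in ependymal cells and 12 in astrocytes.

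Beside deficient alpha2 and beta2 tanycytes, whose medians were close, both quartiles and the upper tail were lower. The label may rest on these same values, so the spread and the tail only describe the labelled cells. The quartiles were 2 and 6 in proliferating, 3 and 8 in alpha2 and 4 and 8 in beta2 tanycytes. A count of 4 or fewer was found in 62.1% of proliferating and 38.0% of alpha2 cells. Only 35 of 968 deficient proliferating cells (3.62%, 2.53 to 4.99) had 10 or more detections in the lower set, which is the lowest value seen in a control proliferating cell. Among deficient neurons it was 5.56%, among beta2 tanycytes 13.9% and among alpha2 tanycytes 19.7% (18.5 to 20.8; 899 of 4574 cells). Beta1 tanycytes had 32.9%, OPCs 39.7%, alpha1 tanycytes 43.4%, ependymal cells 61.7% and astrocytes 68.8%. The variance over the mean of the count was 1.5 in proliferating tanycytes of either genotype and 3.70 in deficient alpha2 tanycytes, against 1.48 in control alpha2 tanycytes. The limit of 10 was set after the values were seen. With 8, 12 or 15 detections, proliferating shares were 9.92%, 1.34% and 0.207% and alpha2 shares 31.3%, 12.8% and 7.56%.

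**Figure D4:**
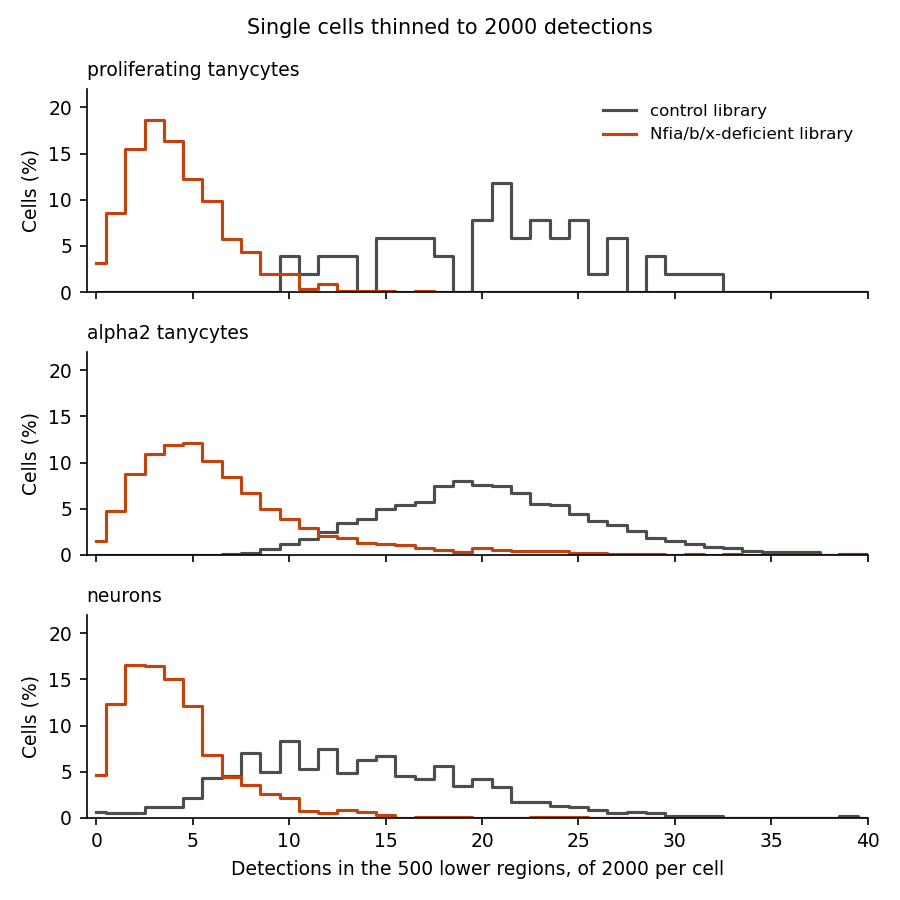
Share of cells (y axis, percent) by number of detections in the 500 lower regions (x axis, drawn up to 40) after thinning to 2000 detections per cell, for proliferating tanycytes, alpha2 tanycytes and neurons. The deficient proliferating cells (968) end at 17, while deficient alpha2 cells have a tail that reaches 36.

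In the higher set the thinned deficient proliferating cells had a median of 21 detections (6 to 44) and the control cells a median of 11 (4 to 18). Deficient alpha1 tanycytes had a median of 19, and deficient alpha2 tanycytes and neurons both had 18. Here the genotypes overlapped more: 317 of the 968 deficient cells were within the control range.

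The depth of the deficient cells moved these levels by less than the differences between the genotypes. From the shallowest to the deepest of 4 equal bins of these cells, the lower set took 1.94, 1.92, 2.05 and 2.31 of every 1000 detections and the higher set 11.4, 10.7, 10.5 and 9.85. These ranges were small beside the differences between the genotypes, but not beside some gaps within the deficient library. There the higher set stood at 10.4 in proliferating tanycytes, 9.55 in alpha1 tanycytes, 9.02 in alpha2 tanycytes and 9.01 in neurons. The lower set stood at 2.12 in proliferating tanycytes and 2.19 in neurons.

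Regions that mark the other types were then read in proliferating tanycytes. Each set held 500 regions chosen in both libraries with equal weight. Alpha2 regions took 4.56 per 1000 detections in control and 5.08 in deficient proliferating cells. These levels lay near those of alpha2 tanycytes themselves, at log2 ratios of -0.04 (-0.12 to 0.03) and -0.02. Alpha1 regions took 2.22 and 2.19, a log2 ratio of -0.01 (-0.12 to 0.10), which became 0.35 with the 200 most specific regions. Sets of different types hold regions of different accessibility, so levels are compared within a set.

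Beta1 regions were lower in the deficient cells, and beta2 regions were lower in summed detections. Beta1 regions went from 2.15 to 1.24 per 1000, a log2 ratio of -0.80 (-0.91 to -0.68). The same ratio in the other 8 types lay between -0.10 in beta2 and -0.37 in alpha2 tanycytes, so proliferating tanycytes had the lowest of the 9. The beta1 set shared 4 regions (0.8% of each) with the lower set. Within the deficient library they were 0.61 below alpha2 on the log2 scale, against 0.18 below in the control library. Beta2 regions went from 0.991 to 0.697 (-0.51, -0.67 to -0.34), with -0.33 in alpha2 tanycytes. In thinned cells the median in beta2 regions was 1 in both genotypes. No such detection was found in 18 of 51 control and 325 of 968 deficient cells. Cells nearest to alpha2, which leave out those nearest to beta2, had 0.749 (0.651 to 0.857) in control and 0.687 (0.663 to 0.712) in deficient cells. The summed beta2 difference thus rested largely on few control cells. Of the thinned deficient cells, 116 of 968 had no detection in beta1 regions, against 2 of 51 control cells.

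Astrocyte and ependymal regions were also lower. Regions of astrocytes, the glial type that shares most with tanycytes, went from 5.93 to 4.84 per 1000 (-0.29, -0.36 to -0.23), with -0.43 in alpha2 tanycytes. Regions of ependymal cells, the ciliated lining of the ventricle, went from 7.88 to 6.63 (-0.25), with -0.21 in alpha2 tanycytes. The direction of the astrocyte value depends on the choice of regions: chosen in the control library alone, the set gave 0.19.

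Neuronal and OPC regions were higher. Neuronal regions went from 0.767 (0.674 to 0.869) to 1.11 (1.08 to 1.14) per 1000, a log2 ratio of 0.53 (0.35 to 0.72), with 0.63 in both alpha1 and alpha2 tanycytes. The ratio was 0.75 in beta1 and 0.73 in beta2 tanycytes, 0.58 in astrocytes, 0.43 in ependymal cells and 0.37 in OPCs. Neurons themselves went from 8.81 to 5.54 per 1000 (-0.67). The rise was thus shared by every non-neuronal type. Within a library, the level of proliferating tanycytes was above that of alpha2 tanycytes. The gap on the log2 scale was 0.40 among control cells and 0.31 among deficient cells. Cells nearest to alpha2, which leave out those nearest to neurons, had smaller gaps. Control ones had 0.657 per 1000 (0.565 to 0.758), an interval that includes the 0.581 of control alpha2 tanycytes. Deficient ones had 1.01 (0.981 to 1.04), beside 0.896 in alpha2. Alpha2 tanycytes were not split in this way. Thinned control medians were both 1, and deficient ones 2 in proliferating and 1 in alpha2 cells. The summed gaps thus rested partly on cells not nearest to alpha2. OPC regions went from 2.66 to 3.03 (0.18, 0.08 to 0.29), while alpha2 tanycytes had -0.11 and alpha1 tanycytes -0.23. The OPC value was -0.058 with regions chosen in the deficient library alone, and the alpha2 set above was -0.13 with regions chosen in the control library alone.

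**Figure D5:**
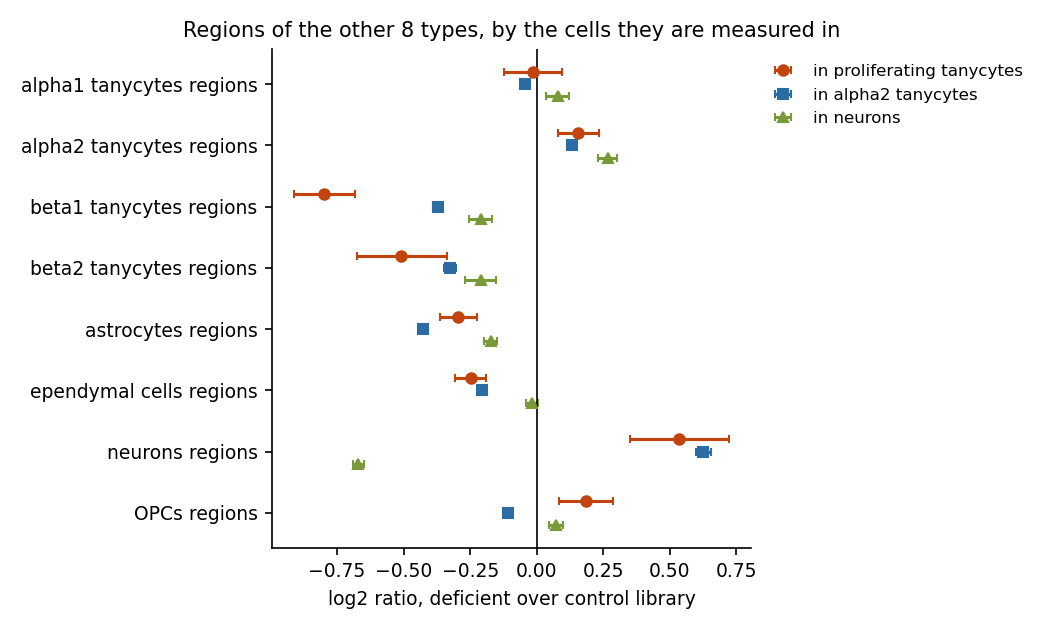
Log2 ratio of deficient to control library (x axis) of detections in 500 regions of each of the other 8 types (y axis), measured in proliferating tanycytes, alpha2 tanycytes and neurons, with 95% intervals. Beta1 regions stand lowest in proliferating tanycytes at -0.80, and OPC regions are above 0 in them at 0.18 but below 0 in alpha2 tanycytes at -0.11.

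The deficient proliferating cells nearest to neurons are described beside those nearest to alpha2. The 97 cells nearest to neurons had 2.24 of every 1000 detections in neuronal regions (2.10 to 2.38), against 1.01 (0.981 to 1.04) in the 916 nearest to alpha2. Their OPC regions were at 4.36 against 2.90 and alpha2 regions at 4.01 against 5.21, where deficient neurons had 4.47 of every 1000 detections in OPC regions and alpha2 tanycytes 2.33. The neuronal, OPC and alpha2 differences thus follow from how the cells were split and say nothing further about them. The lower set stood at 1.69 (1.57 to 1.82) against 2.12, and the higher set at 10.5 against 10.4. The split used all regions, and deficient neurons had less of the lower set than alpha2 tanycytes (2.19 against 3.37 per 1000). The difference in the lower set is therefore not independent of the split either. Median depths were 4247 and 4543.5 detections.

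Few single regions set proliferating tanycytes apart within the deficient library. Of 59158 regions with at least 20 expected detections, 108 (0.183%) were at least 2-fold higher and 1321 (2.23%) at least 2-fold lower than in all other deficient cells, with a median log2 ratio over all tested regions of -0.01. Against alpha2 tanycytes alone 98 (0.166%) were higher and 717 (1.21%) lower, against neurons 1349 (2.28%) and 2039 (3.45%), and against OPCs 6684 (11.3%) and 3887 (6.57%). The OPC counts rest on 274 cells, whose counting error is larger. These regions were found in the same cells and values that the label may rest on, so the counts only describe the labelled cells. In cells thinned to 2000 detections, where 25896 regions were tested, 14 of the 108 higher and 176 of the 1321 lower regions were called again.

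The 108 higher regions took 1.88 of every 1000 detections of deficient proliferating cells, 0.912 of deficient alpha2 tanycytes, 0.980 of neurons and 1.11 of OPCs. Control proliferating cells had 0.689 (0.601 to 0.786) and control alpha2 tanycytes 0.536. In the control library 72 of the 108 (66.7%) leaned the same way against the other control cells, beside 46.1% of all tested regions. Of the 87 detected in the 63 cells, the same 72 (82.8%) did, beside 52.3% of all tested regions detected there. The 1321 lower regions took 3.54 per 1000 in deficient proliferating cells, 6.97 in neurons, 8.28 in alpha2 and 17.0 in beta2 tanycytes. In control proliferating cells they took 11.3, beside 13.1 in control alpha2 tanycytes, and 942 (71.3%) leaned the same way, beside 53.9% of all tested regions. That count includes the 251 regions not detected in the 63 cells, which are lower by construction. Of the 1070 detected there, 691 (64.6%) leaned the same way, beside 47.7% of all tested regions detected there.

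By the rule for naming regions, the 2 highest and the 2 lowest of this comparison are given by number. Region 27028 was detected in 104 deficient proliferating cells (10.1%), in 4.35% of deficient alpha2 tanycytes and in 1 of the 63 control proliferating cells, with a log2 ratio of 1.57 to the other deficient cells. Region 43373 was detected in 150 (14.5%), in 6.41% of alpha2 tanycytes and in 2 of the 63 (1.54); astrocytes of the same library had 12.6%. Region 89618 was detected in 4 deficient proliferating cells (0.387%) and in 3 of the 63 control ones, beside 8.28% of beta2 and 6.13% of beta1 tanycytes of the deficient library (-2.31). Region 31746 was detected in 8 (0.774%) and in 13 of the 63 control cells (20.6%), beside 4.75% of deficient and 23.9% of control alpha2 tanycytes (-2.11). It was thus rarer in deficient cells of both types than in control cells, and rarer in proliferating than in alpha2 cells. In cells thinned to 2000 detections the shares of deficient proliferating and alpha2 cells were 4.55% and 1.53% for region 27028, 6.51% and 2.67% for region 43373, 0.310% and 0.962% for region 89618, and 0.207% and 1.90% for region 31746.

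Between the libraries, the 63 control cells allow single regions to be read only at high accessibility. Of 2021 such regions, 6 (0.297%) were at least 2-fold higher and 3 (0.148%) at least 2-fold lower in deficient proliferating cells. With all profiles at equal totals the counts were 20 higher and 31 lower, beside 29 to 54 higher and 29 to 50 lower in the other 8 types. With all detections these types had 0 or 1 higher and 0 to 2 lower. In alpha2 tanycytes the SD of the log2 ratio was 0.48 at equal totals and 0.097 with all detections. The counts at equal totals are therefore mostly counting error and do not show that other types differ at more regions. Region 28642 was detected in 22 of 63 control (34.9%) and 111 deficient cells (10.7%), with a log2 ratio of -1.60, and in 44.7% and 17.4% of alpha2 tanycytes. Region 51608 was detected in 19 (30.2%) and 141 (13.6%), a ratio of -1.06. Region 74066 was detected in 7 (11.1%) and 280 (27.1%), a ratio of 1.30, but in 35.3% of control and 26.9% of deficient alpha2 tanycytes. Region 75197 was detected in 8 (12.7%) and 291 (28.2%), a ratio of 1.17, beside 34.7% and 28.0% of alpha2 tanycytes. Both higher regions rest on 7 and 8 control cells and were not higher in deficient alpha2 tanycytes. In thinned cells the control and deficient proliferating shares were 17.6% and 4.03% for region 28642, 11.8% and 5.17% for region 51608, 1.96% and 12.5% for region 74066, and 7.84% and 11.1% for region 75197.

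Proliferating tanycytes had the broadest accessibility of the 9 types. Regions were ordered by the number of cells of other types that hold them and split into 5 bins with equal shares of all detections. The narrowest bin took 17.6% of the detections of control and 19.5% of those of deficient proliferating cells, the lowest of the 9 types in each library. The broadest bin took 21.0% and 20.6%, the highest of the 9. Both places held when breadth was counted for each type over all the other types, an alternative chosen after the data were seen, and when cells were thinned to 2000 detections. Differences from the next type were small: in the control library, beta1 tanycytes had 19.1% in the narrowest and beta2 tanycytes 20.4% in the broadest bin when breadth was counted in this way. In the deficient library the margins were smaller, with alpha2 tanycytes at 19.8% in the narrowest and neurons at 20.3% in the broadest bin.

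Accessibility over blocks of 100 consecutive region numbers varied little. The SD of the log2 ratio of proliferating to other cells over 1073 blocks was 0.090 in the control library, the lowest of 9 types at equal totals, and 0.079 in the deficient library, the seventh. What the order of the region numbers stands for is not assumed here.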

How the data were processed

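Single-cell ATAC-seq libraries of sorted GFP-positive cells, 1 control and 1 Nfia/b/x-deficient, were analysed. Cell Ranger ATAC 1.1.0 processed the reads at its default settings, per the labels' protocols. The submitters' processing notes name mm10 as the build, and Signac 0.2.5, Seurat, MACS2 and Cell Ranger 3.1 as tools whose roles are not stated. Region calling, cell filters, doublet removal and the naming of types are not given in the sources used here, and no doublet caller was run.

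The matrix that the authors deposited gives presence or absence of 107377 regions in 22285 cells (112651747 detections), with no fragment counts, which understates regions open in most cells. Since the matrix names no cells, they were matched to the deposited annotation by their order. The proliferating cells, the sets and the comparisons were chosen with earlier results of these data known.

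Detections were summed per type and library and divided by the total of that type and library. Single regions used log2 ratios with a pseudocount of 1 per 1000000 and a 2-fold limit. Regions needed at least 20 detections expected from the other cells, or, between libraries, a level of at least 50 per 1000000 outside the type. Named regions were the 2 highest and 2 lowest with at least 100 detections. Sets of other types held the 500 highest regions by mean log2 ratio to the remaining cells over both libraries, with at least 20 detections and a ratio of at least 0.5 in each. Lower and higher sets held 500 regions each. These sets were kept as chosen in all cells when thinned cells were measured. Nearest types maximised the multinomial likelihood with 0.5 added to each region, or, at equal totals, with each profile averaged with that of its library. No test was made, since each genotype had 1 library. Shares have exact Clopper-Pearson, sums exact Poisson and ratios exact conditional binomial intervals at 95%. The ratio of proliferating to other cells at single regions, the finding of a planted set and the ratio intervals were checked on simulated data. Only the ratio without a pseudocount had to meet a limit of accuracy. Ratios between libraries and reassigned names were not simulated. Software was pandas 2.3.3, scipy 1.17.1, numpy 2.4.6 and matplotlib 3.10.9 under Python 3.11.15. Alternatives were other pseudocounts, minimums, set sizes, set choices, scalings and comparison cells, thinned cells, and reassigned names. The reassignment within libraries at equal totals, the limits of 8, 12 and 15 detections per cell and breadth counted over all other types were added after the data were seen.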

Additional observations from a re-analysis of the deposited data

Results flagged for a closer look

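OPC regions moved in opposite directions between genotypes in different tanycytes. Their log2 ratio of deficient to control was 0.18 in proliferating tanycytes, -0.23 in alpha1 and -0.11 in alpha2 tanycytes. The difference was not tested, since each genotype had 1 library, and the value in proliferating tanycytes was -0.058 when the regions were chosen in the deficient library alone.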

How the results depend on the processing

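No paired analysis was possible because each genotype had 1 library. Of 138 alternative values, 67 stayed within the interval of the reported value (counts within 1.5 times), 67 moved beyond it and 4 changed direction. With regions chosen in the control library alone, sign changed for the alpha2 (-0.13) and astrocyte (0.19) sets, and beta1, ependymal, neuronal and OPC sets gave -0.63, -0.072, 0.34 and 0.37. Chosen in the deficient library alone, the OPC set changed sign (-0.058), and the alpha2, beta1, astrocyte, ependymal and neuronal sets gave 0.42, -1.05, -0.93, -0.71 and 0.79. With 200 regions, alpha1, beta1, ependymal and neuronal sets gave 0.35, -0.93, -0.33 and 0.33. Thinned cells gave 0.12, -0.62 and -0.19 for alpha1, beta1 and ependymal sets.

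The lower set gave log2 ratios between genotypes of -2.63 with 200 regions, -2.32 in thinned cells, and -2.72 and -2.50 when chosen in alpha2 or beta1 tanycytes alone. Its ratio to alpha2 in the deficient library was -0.81 with 200 regions, -0.71 with median-of-ratios scaling, and -0.75 and -0.71 with the alpha2 and beta1 choices. The higher set gave 1.11, 1.86 and 1.28 between genotypes for 200 regions and the alpha2 and beta1 choices. Its ratio to alpha2 was 0.22 with 200 regions, 0.16 with median-of-ratios scaling, 0.22 in thinned cells and 0.31 with the alpha2 choice. The share of alpha2 cells over that of proliferating cells in the upper tail was 5.44 at 10 detections and 3.16, 9.52 and 36.6 at 8, 12 and 15.

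Counts of single regions moved with most settings. Against the other deficient cells, higher and lower regions numbered 7 and 31 with a pseudocount of 5, 242 and 2591 with none, 6 and 47 with a minimum 4 times higher, 186 and 2907 with none, 65 and 464 in thinned cells, and 334 and 1984 with types weighted equally; against tanycytes alone 324 were higher. Between genotypes, they numbered 3 and 1 with a pseudocount of 5, 0 and 0 at a level of 100 per 1000000, 31092 and 14547 with no minimum, 158 and 50 in thinned cells, and 1 and 12 with the minimum set in proliferating cells.

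The share ratio became at least 778 with names reassigned from pooled profiles, which left no control cell (taken as 3); the pooled proliferating profile was 94.3% deficient cells. It turned direction, to 0.634, with names reassigned within each library at equal totals, an alternative chosen after the data were seen. In that reassignment only 8.13% of control and 23.9% of deficient alpha2 tanycytes went back to their own type. Alpha2 was nearest for 68.3% of control and 96.6% of deficient cells against profiles of the other library, and for 83.8% of deficient cells over the type sets alone. The place of the deficient block SD, counted from the highest, was 8 with blocks of 500 and 6 against tanycytes alone. Thinned cells had 17.0% (control) and 19.4% (deficient) in the narrowest and 21.4% and 20.9% in the broadest bin. The 63 control cells limit every value between genotypes.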
